A study of Mus musculus with 81 samples.

Results

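Disease-associated microglia are the form that these brain macrophages take around damaged myelin, plaques and dying cells, and 10 genes commonly used as their core markers are described here: Cst7, Gpnmb, Cd63, Cd9, Lgals3, Cd44, Capg, Baiap2l2, Ank and Ch25h. They were found by gene symbol in every deposited count table, 10 genes of 25124. The study sequenced polyadenylated RNA from microglia of adult male C57BL/6 mice, and each library came from a sort of 2 to 6 pooled brains. Mice were fed 0.2% cuprizone, a copper-binding compound in the chow that is toxic to the myelin-forming cells, for 4, 5 or 6 weeks, or were left on normal diet (baseline). The genotypes were Trem2KO and its WT control at 4 weeks, Cx3cr1CreERT2/WT::Mef2afl/fl (Mef2aKO) at 5 weeks and Cx3cr1CreERT2/WT::Egr2fl/fl (Egr2KO) at 5 and 6 weeks, the last 2 lines set against Cx3cr1CreERT2/WT mice (Cre) that carry the same Cre allele and no floxed gene. The Cx3cr1 promoter drives that tamoxifen-dependent recombinase in microglia and in other Cx3cr1-expressing myeloid cells. At 4 and 6 weeks the gates were CD11cpos (positive for CD229 and CD11c), CD229pos (positive for CD229 alone) and CD229neg (negative for both). At 5 weeks another surface protein, Clec7a, was added: CD11cpos cells carried all 3 proteins, CD229pos cells carried Clec7a and CD229, Clec7apos cells carried Clec7a alone and Clec7aneg cells carried none. Baseline cells, and a whole population taken at 5 weeks, were instead gated low for CD44, CD45 and CD11b, so a comparison of a cuprizone gate with baseline changes the diet and the gate together, and CD44 is the protein of one of the members. Mef2aKO baseline cells were also sorted into CD229pos and CD229neg. In all there were 81 libraries in 28 groups, of which 21 held 3 libraries, 2 held 4 and 5 held 2. The labels do not say that libraries of a group came from separate sort days, so p-values measure the spread between these pools.

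TREM2 is a lipid-sensing surface receptor through which microglia are known to enter the disease-associated form, MEF2A is a transcription factor of the resting microglial programme, and EGR2 is an early-response transcription factor induced in activated macrophages. The markers fall into 5 kinds. Cst7 (cystatin F, an inhibitor of lysosomal cysteine proteases) and Gpnmb (a transmembrane glycoprotein of lysosomes and the cell surface) belong to the lysosome. Cd63 and Cd9 are tetraspanins of late endosomes and of the plasma membrane. Lgals3 encodes galectin-3, a sugar-binding lectin that gathers on damaged lysosomes, and Cd44 the receptor for the matrix polymer hyaluronan. Capg caps the fast-growing ends of actin filaments, and Baiap2l2 encodes a membrane-curving protein that links to actin. Ank is needed to export pyrophosphate and ATP, and Ch25h converts cholesterol to the signalling oxysterol 25-hydroxycholesterol.

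In the mm10 coordinates of the count tables Cst7 lies at chr2:150570415-150578944 (plus strand), Gpnmb at chr6:49036518-49058182 (plus) and Cd63 at chr10:128909866-128912818 (plus). Cd9 lies at chr6:125460266-125494760 (minus), Lgals3 at chr14:47373860-47386167 (plus) and Cd44 at chr2:102811142-102901665 (minus). Capg, for which the count tables list 2 transcripts with a common end, lies at chr6:72549647-72562983 (plus) by the one that starts further downstream, Baiap2l2 at chr15:79258195-79285509 (minus), Ank at chr15:27466677-27594907 (plus) and Ch25h at chr19:34473784-34475148 (minus). All 10 are protein-coding, and each value counts reads over the whole gene model.

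The promoters of 9 members (all but Baiap2l2), taken from RefSeq on GRCm38.p6 as the 250 bases before and 50 bases after the start of the gene, were read for the recognition letters of 5 factors on both strands. AP-1 letters (TGANTCA) were present in 2 of the 9, Cst7 and Gpnmb, against 7.81% of all 32851 promoters of that length. PU.1 letters (AGGAAGT) were present in Cst7 alone, against 9.35%, and EGR letters (GTGGGCG) in Cd44 alone, against 7.97%. Neither the E-box CACGTG (7.15% of all promoters) nor the MEF2 letters (CTA and TAG with 4 bases between) (3.69%) were found in any of the 9. The 3 promoters with a match are printed 5′ to 3′ on the gene's strand with the matched letters in capitals: in Cst7 the PU.1 letters begin 63 bases and the AP-1 letters 6 bases before the start, in Gpnmb the AP-1 letters begin 9 bases after it, and in Cd44 the EGR letters begin 27 bases before it. These matches describe the letters and are not evidence of binding.
Cst7, chr2:150570165-150570464 (plus): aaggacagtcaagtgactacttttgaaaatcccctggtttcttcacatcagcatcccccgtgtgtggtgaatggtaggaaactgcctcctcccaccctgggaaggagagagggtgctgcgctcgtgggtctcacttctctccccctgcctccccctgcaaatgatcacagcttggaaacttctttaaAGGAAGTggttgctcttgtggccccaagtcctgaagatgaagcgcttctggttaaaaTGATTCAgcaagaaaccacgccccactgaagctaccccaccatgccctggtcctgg
Gpnmb, chr6:49036268-49036567 (plus): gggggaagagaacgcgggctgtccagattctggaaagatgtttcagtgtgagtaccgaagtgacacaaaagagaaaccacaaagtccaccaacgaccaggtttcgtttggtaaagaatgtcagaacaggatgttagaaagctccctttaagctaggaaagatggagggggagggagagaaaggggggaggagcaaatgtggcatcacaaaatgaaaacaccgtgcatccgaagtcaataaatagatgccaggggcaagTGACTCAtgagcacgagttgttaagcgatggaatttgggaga
Cd44, chr2:102901616-102901915 (minus): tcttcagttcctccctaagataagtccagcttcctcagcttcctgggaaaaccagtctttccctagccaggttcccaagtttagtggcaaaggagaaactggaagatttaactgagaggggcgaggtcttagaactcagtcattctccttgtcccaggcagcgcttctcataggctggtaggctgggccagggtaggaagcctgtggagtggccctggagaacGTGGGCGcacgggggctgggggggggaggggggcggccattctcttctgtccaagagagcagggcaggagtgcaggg

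Library totals ran between 4387075 and 13972985 counts with a median of 9549766, and levels are given as CPM, counts scaled to the library's own total, unless the authors' length-scaled TPM are named. Adjusted p-values are those of edgeR's quasi-likelihood test over all genes tested, called at a threshold of 0.05. A value after ± beside a log2 fold change is an approximate standard error. It is the size of the log2 fold change divided by the square root of that test's F statistic. At low counts, leaving out 1 library moved some values by more than it. The 18 homeostatic microglial genes, such as P2ry12 and Tmem119, summed to 10621 to 23070 CPM, whereas 8 border macrophage markers (such as Mrc1, Pf4 and Cd163) summed to 8.72 to 386 CPM, monocyte markers to 6.90 to 39.3 CPM and neutrophil markers to 0 to 23.1 CPM. Ly6c2 and Chil3, which define inflammatory monocytes, were at 0 in 71 and 76 of the 81 libraries. Trem2 had 87.5 to 122 CPM in Trem2KO and 347 to 411 CPM in WT baseline libraries, a difference that passed the test (log2 fold change -1.85 ± 0.09, adjusted p = 3.68e-13). Mef2a counts over the whole gene did not separate the Mef2aKO from the Cre groups (adjusted p between 0.248 and 0.883) and so give no check of that label. Egr2 was lower in the Egr2KO whole population (log2 fold change -1.61 ± 0.14, adjusted p = 3.94e-05), while its lower values in the 3 gates at 6 weeks, by 0.88, 0.62 and 0.43 on the log2 scale from CD229neg to CD11cpos, did not pass the test. Egr2 did not separate the Egr2KO from the Cre baseline libraries (log2 fold change 0.04 ± 0.41, adjusted p = 0.998) and so gives no check of that label.

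Per transcript length the markers spanned a very wide range of levels in resting WT microglia. On the authors' TPM scale, which allows genes to be compared, WT baseline cells had 385 ± 3.78 TPM of Cd9 and 123 ± 3.32 TPM of Cd63 (SD, n = 3), then 38.8 ± 2.15 TPM of Ank, 21.5 ± 5.69 TPM of Capg and 10.8 ± 2.80 TPM of Cst7. The ranges of these 5 genes did not overlap. Lgals3 followed at 3.00 ± 1.14 TPM, and the other 4 were near the bottom of detection: Ch25h at 0.906 ± 0.542 TPM, Cd44 at 0.838 ± 0.254 TPM, Baiap2l2 at 0.403 ± 0.159 TPM and Gpnmb at 0.0643 ± 0.0245 TPM, the range of Ch25h overlapping with those of Cd44 and of Baiap2l2. The order in the CD229pos gate after 4 weeks of cuprizone was different. Cst7, at 717 ± 32.6 TPM, stood level with Cd9 at 708 ± 38.5 TPM, their ranges overlapping. Cd63 came next at 367 ± 17.2 TPM, and Ch25h, at 294 ± 2.46 TPM, stood level with Ank at 295 ± 8.48 TPM. Below them, with no overlap between neighbours, were Capg at 198 ± 1.77, Baiap2l2 at 137 ± 2.66, Gpnmb at 93.6 ± 9.40, Lgals3 at 69.6 ± 1.11 and Cd44 at 16.4 ± 2.57 TPM. For Lgals3, Cd44 and Capg the TPM tables list another transcript than the count tables, which can shift the level of those 3.

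After 4 weeks of cuprizone all 10 markers were higher in WT CD229neg microglia than in WT baseline cells, although this gate holds the cells that carry neither injury-associated surface protein. Of all 12818 genes tested, 18.0% were called higher in this comparison and 13.1% lower, with a median log2 fold change of 3.23 for the 10 members. Gpnmb, Ch25h and Baiap2l2 had the largest changes and Cst7 the next. Of the lysosomal pair, Cst7 had 184, 179 and 267 CPM in CD229neg cells of cuprizone-fed WT mice, against 6.49, 8.71 and 5.39 CPM at WT baseline (4.95 ± 0.17, adjusted p = 7.1e-18). Gpnmb had 43.3, 47.2 and 72.2 CPM in WT CD229neg cells, against 2, 1 and 2 reads in the 3 WT baseline libraries, so that its fitted log2 fold change of 8.34 ± 0.37 rests on a handful of baseline reads. Both genes were scarce at baseline, and every cuprizone library was above every baseline library. Of the genes at the actin cytoskeleton and in small-molecule metabolism, Baiap2l2 (6.67 ± 0.27) and Ch25h (6.92 ± 0.25) had log2 fold changes far above those of Capg (2.19 ± 0.16) and Ank (1.79 ± 0.10). Lgals3 (3.57 ± 0.26) and Cd44 (2.89 ± 0.23) lay between. The tetraspanins moved the least: Cd63 had 132, 132 and 165 CPM in WT CD229neg cells, against 73.6, 69.2 and 71.0 CPM at WT baseline, and Cd9 had 418, 413 and 445 CPM against 298, 292 and 305 CPM at WT baseline (log2 fold changes 1.04 ± 0.11 and 0.54 ± 0.09). Among 30 other disease-associated microglia genes, listed with earlier results known, 30 rose and 0 fell in the same comparison, with a median log2 fold change of 1.20.

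**Figure D1:**
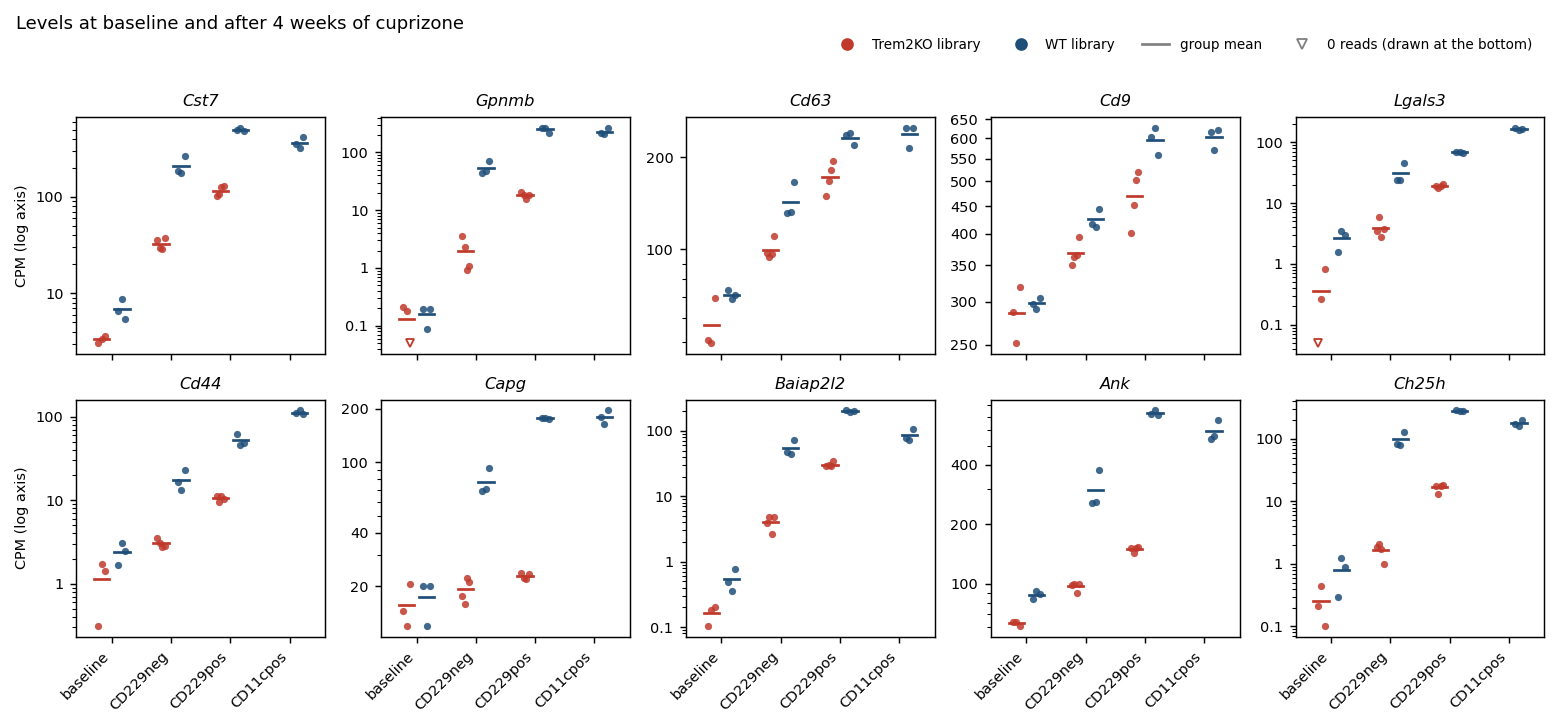
Level of each marker in CPM (log axis) in every library at baseline and after 4 weeks of cuprizone, Trem2KO (red) left of WT (blue) within each gate. Points are libraries, horizontal lines are group means and open triangles mark 0 reads. For Cst7 the Trem2KO CD229pos libraries (103 to 129 CPM) lie below the WT CD229neg libraries (179 to 267 CPM).

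Within the cuprizone-fed WT brain, all 10 markers were higher again in CD229pos than in CD229neg cells. Here 25.7% of all genes were called higher and 23.1% lower, so that many genes differ between these gates, and the median log2 fold change was 1.31 for the members. Gpnmb had the largest step, with 264, 268 and 221 CPM in WT CD229pos libraries, against 43.3, 47.2 and 72.2 CPM in WT CD229neg libraries (log2 fold change 2.25 ± 0.15, adjusted p = 1.96e-12). Baiap2l2 and Cd44 followed, with log2 fold changes of 1.91 ± 0.14 and 1.60 ± 0.16, and Cd9 had the smallest step (0.53 ± 0.09). No member's libraries overlapped between the 2 gates, and the share of all genes without overlap is not given. Border macrophage markers summed to 77.1 to 224 CPM in WT CD229pos and 60.3 to 191 CPM in WT CD229neg libraries, 1 of 8 rising. Endothelial markers summed to 254 to 285 CPM in WT CD229pos and 91.7 to 130.2 CPM in WT CD229neg libraries, with 1 of the 4 tested genes rising and 3 falling, and their part in the marker levels was not tested. In bulk RNA of a gate, more cells expressing a gene and more RNA of it per cell cannot be told apart, here and in all later comparisons.

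The further step into the CD11cpos gate split the markers at 4 weeks. Lgals3 and Cd44, the lectin and the hyaluronan receptor, rose further, Cst7, Baiap2l2, Ank and Ch25h fell, and Gpnmb, Cd63, Cd9 and Capg were not called. Of all genes, 11.3% were called higher and 12.2% lower. Lgals3 had 173, 158 and 167 CPM in WT CD11cpos cells, against 68.9, 68.8 and 67.4 CPM in WT CD229pos cells (log2 fold change 1.26 ± 0.16, adjusted p = 2e-06). Cd44 had 110.4, 118 and 106 CPM in WT CD11cpos cells, against 61.3, 46.0 and 48.8 CPM in WT CD229pos cells (1.08 ± 0.14, adjusted p = 2.96e-06). For both genes every CD11cpos library was above every CD229pos library. Baiap2l2 went the other way, with 77.5, 71.8 and 106 CPM in WT CD11cpos cells, against 205, 197 and 198 CPM in WT CD229pos cells (-1.26 ± 0.13, adjusted p = 5.92e-08). Cst7 fell by 0.48 and Ch25h by 0.69 on the log2 scale, again without overlap. Ank fell by 0.33 (adjusted p = 0.0112), a call that ended without WT CD229pos replicate 2 (adjusted p = 0.0569), WT CD11cpos replicate 1 (0.0734) or WT CD11cpos replicate 2 (0.0655). Of the 4 not called, Gpnmb had 219, 210.3 and 260.3 CPM in WT CD11cpos and 264, 268 and 221 CPM in WT CD229pos cells. The highest gate in WT mice at 4 weeks was therefore CD229pos for Cst7, Gpnmb, Baiap2l2, Ank and Ch25h by their means, and CD11cpos for the other 5.

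All 10 markers were lower in Trem2KO than in WT microglia in both gates of cuprizone-fed mice. In CD229neg cells the 10 falls stood beside 12.8% of all genes called lower and 7.61% called higher, and in CD229pos cells beside 26.2% lower and 26.4% higher, with median log2 fold changes of -2.63 and -2.36 for the members. Ch25h, the oxysterol-producing enzyme, had the largest difference. It had 1.88, 2.06, 1.72 and 0.981 CPM in Trem2KO CD229neg libraries, against 84.7, 79.2 and 132 CPM in WT CD229neg libraries (log2 fold change -5.88 ± 0.21, adjusted p = 5.25e-18). In CD229pos cells it had 17.4, 13.4, 17.8 and 18.5 CPM in Trem2KO and 286, 285 and 279.7 CPM in WT libraries (-4.15 ± 0.14, adjusted p = 1.73e-18). The Trem2KO libraries of both gates were far below every WT library of the same gate.

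Gpnmb and Cst7, the lysosomal pair, differed in the same way. Gpnmb had 21.1, 18.4, 15.8 and 18.2 CPM in Trem2KO CD229pos libraries, against 264, 268 and 221 CPM in WT CD229pos libraries (-3.83 ± 0.15, adjusted p = 2.18e-17). In CD229neg cells its log2 fold change was -4.76 ± 0.22, adjusted p = 4.4e-15. Cst7 was lower but still clearly present, with 103, 107, 127 and 129 CPM in Trem2KO CD229pos libraries, against 491, 524 and 479 CPM in WT CD229pos libraries (-2.17 ± 0.12, adjusted p = 1.44e-14). The actin-capping gene Capg had 23.9, 22.4, 22.0 and 23.3 CPM in Trem2KO CD229pos libraries, against 177, 176 and 176 CPM in WT CD229pos libraries (-3.01 ± 0.14, adjusted p = 4.96e-16). Baiap2l2 had 28.6, 29.6, 29.1 and 34.8 CPM in Trem2KO CD229pos libraries, against 205, 197 and 198 CPM in WT CD229pos libraries (-2.78 ± 0.13, adjusted p = 8.49e-16). For Ank the difference in that gate was -2.35 ± 0.09, for Lgals3 -1.91 ± 0.17 and for Cd44 -2.36 ± 0.16 on the log2 scale, with no overlap between Trem2KO and WT libraries for any of them.

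The tetraspanins differed least between the genotypes. Cd63 had 149, 167, 181 and 194 CPM in Trem2KO CD229pos libraries, against 236, 240.1 and 218 CPM in WT CD229pos libraries (-0.49 ± 0.10, adjusted p = 0.000161), and Cd9 had 402, 451, 503 and 519.9 CPM in Trem2KO CD229pos libraries, against 602, 627 and 559 CPM in WT CD229pos libraries (-0.41 ± 0.08, adjusted p = 9.96e-05). In CD229neg cells the log2 fold changes were -0.54 ± 0.10 for Cd63 and -0.23 ± 0.08, adjusted p = 0.0468 for Cd9. The Cd9 call in CD229neg cells ended when any 1 of the 3 WT libraries or of Trem2KO replicates 1, 2 and 3 was left out (adjusted p = 0.0616 to 0.176), and under the size factors of DESeq2 in edgeR (0.0643) and DESeq2 itself (0.0507). Among the 30 other disease-associated genes, 29 fell and 0 rose in each gate. Border macrophage markers moved with the genotype in CD229neg cells, where 8 of 8 fell and their sum was 20.2 to 32.0 CPM in Trem2KO and 60.3 to 191 CPM in WT libraries. In CD229pos cells the border macrophage sum was 83.6 to 117 CPM in Trem2KO and 77.1 to 224 CPM in WT libraries, 2 of 8 falling. Endothelial markers summed to 41.7 to 50.0 CPM in Trem2KO and 254 to 285 CPM in WT CD229pos libraries, 3 of the 4 tested being called higher and 1 lower. Astrocyte markers summed to 194 to 214 CPM in Trem2KO and 84.3 to 100.1 CPM in WT CD229pos libraries, 1 of the 6 tested being called higher. The part of these cell types in the marker levels was not tested.

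Trem2KO microglia were not without response. Compared with Trem2KO baseline cells, Trem2KO CD229neg cells after cuprizone had 9 members higher and 0 lower, Capg being the exception (0.29 ± 0.17, adjusted p = 0.389); 5.23% of all genes were called higher and 2.08% lower. Cst7 had 35.4, 29.8, 28.5 and 37.0 CPM in Trem2KO CD229neg libraries, against 3.03, 3.33 and 3.57 CPM at Trem2KO baseline (3.28 ± 0.22, adjusted p = 6.37e-11), so the gene rose without Trem2 but to a level below that of WT cells. Ch25h (2.60 ± 0.64, adjusted p = 0.0104), Cd44 (1.35 ± 0.34, adjusted p = 0.0129) and Cd9 (0.35 ± 0.08, adjusted p = 0.00663) were less secure. The Cd44 call ended without Trem2KO baseline replicate 1 (adjusted p = 0.103) and when only the 2 groups compared were fitted (0.0612). The Cd9 call ended without Trem2KO baseline replicate 2 (0.0749). The Ch25h call ended without Trem2KO baseline replicate 1 (0.051) or 3 (0.0502), and its log2 fold change was 3.32 without replicate 2. Lgals3 had a log2 fold change of 3.39 ± 0.54, and 4.63 without Trem2KO baseline replicate 3, its counts in these 3 libraries being 0, 3 and 8. A test of the difference between the diet steps of Trem2KO and WT mice called 4 members with a smaller step in Trem2KO mice (Cst7, Capg, Ank and Ch25h) and 0 with a larger one, beside 3.04% of all genes smaller and 0.835% larger.

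The step from CD229neg to CD229pos was also present without Trem2. In Trem2KO mice 9 members were higher in CD229pos than in CD229neg cells and 0 lower, beside 15.8% of all genes called higher and 11.3% lower, and Capg was not called (0.25 ± 0.15, adjusted p = 0.241). The replicate numbers paired these libraries. With the number as a block within genotype and diet Capg was called too (adjusted p = 0.0455), and with 1 block term over the whole experiment it was not (0.113). Gpnmb had 21.1, 18.4, 15.8 and 18.2 CPM in Trem2KO CD229pos libraries, against 3.55, 2.28, 0.920 and 1.10 CPM in Trem2KO CD229neg libraries (3.18 ± 0.25, adjusted p = 2.16e-10), and every CD229pos library was above every CD229neg library. Even so, the CD229pos libraries of Trem2KO mice stayed under the CD229neg libraries of WT mice for 8 of the members, and overlapped with them for Cd63 and Cd9. This pair of groups differs in both genotype and gate and was not tested. The share of all genes separated in this way is not given, so whether the count is particular to the markers is not known. The difference between the steps of the 2 genotypes was tested on the log2 scale. It called 5 members with a larger step in Trem2KO mice (Ch25h, Lgals3, Baiap2l2, Gpnmb and Cst7) and 2 with a smaller one (Capg and Ank), beside 9.07% of all genes with a larger and 5.78% with a smaller step. Those 5 started lower in Trem2KO than in WT CD229neg cells. Mean Ch25h rose from 1.66 to 16.8 CPM in Trem2KO and from 98.5 to 284 CPM in WT mice. Mean Cst7 rose from 32.7 to 117 CPM in Trem2KO and from 210 to 498 CPM in WT mice. In mean CPM all 5 rose by less in Trem2KO than in WT mice, which was not tested. Border macrophage markers rose with this gate in Trem2KO mice, 7 of 8 being called, with sums of 83.6 to 117 CPM in Trem2KO CD229pos and 20.2 to 32.0 CPM in Trem2KO CD229neg libraries, and their part was not tested.

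At baseline 2 members were called lower in Trem2KO than in WT cells and 0 higher, beside 0.538% of all genes lower and 0.039% higher. Lgals3 had 0, 3 and 8 reads in the 3 Trem2KO baseline libraries, against 16, 40 and 30 reads in the 3 WT baseline libraries (-2.83 ± 0.60, adjusted p = 0.0173), and -4.07 without Trem2KO baseline replicate 3. Ank had 63.7, 63.9 and 61.0 CPM in Trem2KO and 83.7, 91.9 and 88.4 CPM in WT baseline libraries (-0.46 ± 0.11, adjusted p = 0.0399). The libraries of the 2 genotypes did not overlap for either gene, yet both calls were fragile. The Lgals3 call ended without WT baseline replicate 2 or 3 or without Trem2KO baseline replicate 1 or 2 (adjusted p = 0.0671 to 0.138), the Ank call without WT baseline replicate 2 or 3 or any 1 of the 3 Trem2KO libraries (0.0674 to 0.197), and both when only the 2 groups were fitted (0.353 for Lgals3 and 0.117 for Ank). Cst7 was lower in every Trem2KO library, 3.03, 3.33 and 3.57 CPM in Trem2KO against 6.49, 8.71 and 5.39 CPM in WT baseline libraries, and was not called (-1.03 ± 0.29, adjusted p = 0.13), but it was with DESeq2 (0.00426), with each 4-week table fitted alone (0.0402) and without a filter (7.79e-05).

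**Figure D2:**
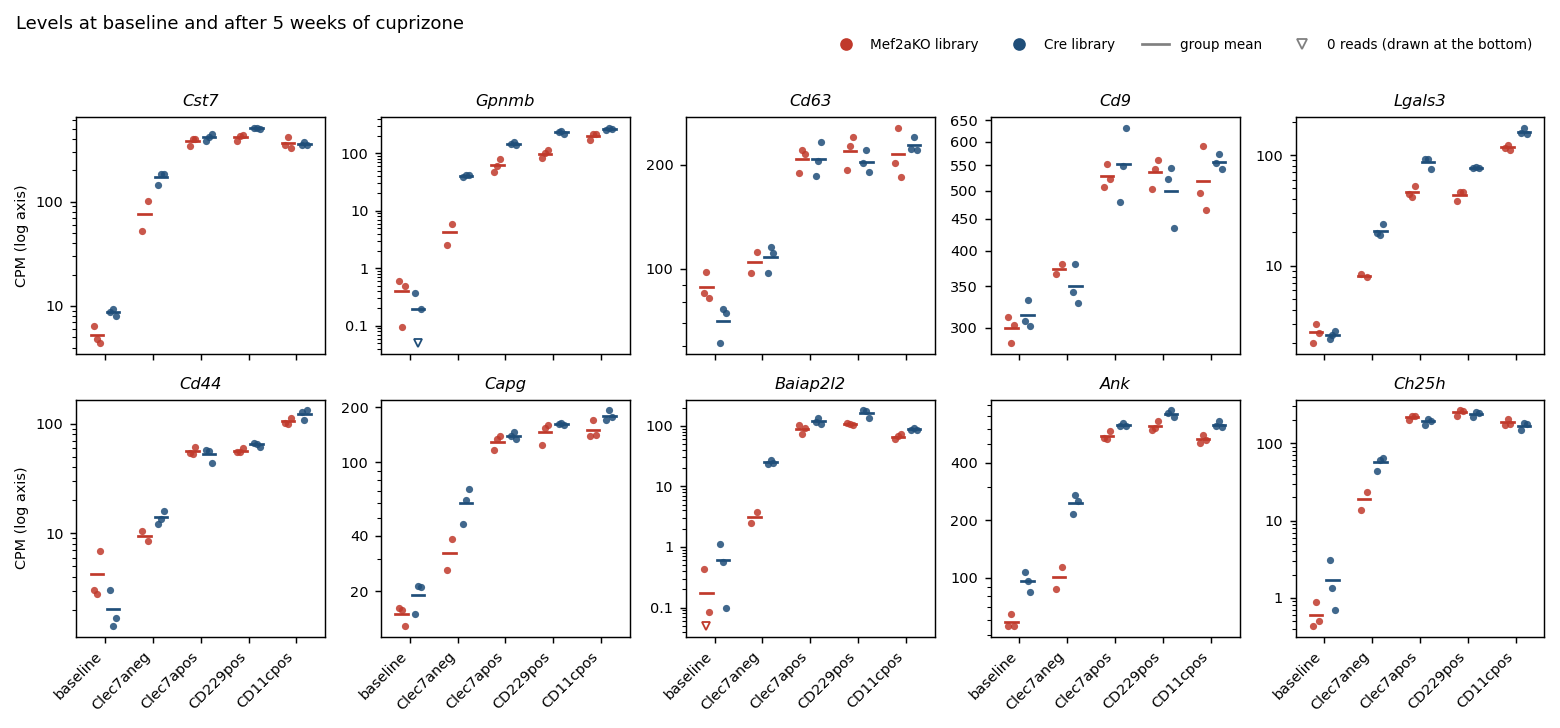
Level of each marker in CPM (log axis) in every library at baseline and in the 4 gates after 5 weeks of cuprizone, Mef2aKO (red) left of Cre (blue) within each gate. Points are libraries, horizontal lines are group means and open triangles mark 0 reads. Baiap2l2 in the Clec7aneg gate lies at 2.46 and 3.79 CPM in Mef2aKO and at 23.0 to 27.7 CPM in Cre libraries. In the Clec7apos gate it lies at 73.2 to 103 CPM in Mef2aKO and at 106 to 135 CPM in Cre libraries.

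The Clec7a gate, used at 5 weeks, allowed the markers to be followed over 4 gates in Cre mice. Cre Clec7aneg cells had 9 members higher than Cre baseline cells and 0 lower (15.5% of all genes higher, 13.3% lower), with Cd9 not called (0.14 ± 0.10, adjusted p = 0.317). Cst7 had 144, 186 and 184 CPM in Cre Clec7aneg cells, against 8.80, 9.30 and 8.04 CPM at Cre baseline (4.27 ± 0.18, adjusted p = 8.38e-19). The low-count members had larger fitted log2 fold changes that depend on 1 baseline library, being 7.60 ± 0.37 for Gpnmb, 5.30 ± 0.29 for Baiap2l2 and 4.99 ± 0.25 for Ch25h, and 8.51, 6.12 and 5.75 without Cre baseline replicate 1. In this comparison border macrophage markers went the other way, 6 of 8 falling and 1 rising (22.4 to 33.6 CPM in Cre Clec7aneg and 29.0 to 163 CPM in Cre baseline libraries), and their part was not tested.

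Gaining Clec7a alone by surface protein, without CD229 or CD11c, went with a further rise of all 10 markers in Cre mice (20.9% of all genes higher, 17.0% lower). The RNA of the other 2 sorting genes differed as well. Ly9, the gene of CD229, fell (-1.30 ± 0.14, adjusted p = 7.85e-09), and Itgax, the gene of CD11c, rose (1.93 ± 0.12, adjusted p = 4.05e-14). Baiap2l2 had 117, 135 and 106 CPM in Cre Clec7apos cells, against 23.0, 27.7 and 24.3 CPM in Cre Clec7aneg cells (2.32 ± 0.14, adjusted p = 5.87e-15). Lgals3 had 92.4, 92.0 and 74.8 CPM in Cre Clec7apos cells, against 19.7, 19.0 and 23.7 CPM in Cre Clec7aneg cells (2.11 ± 0.10, adjusted p = 5.62e-17). Cd63 and Cd9 rose by 1.00 and 0.71 on the log2 scale. For no member did the 2 gates overlap, and the share of all genes without overlap is not given. Border macrophage markers rose too, 8 of 8, their sum being 103 to 193 CPM in Cre Clec7apos and 22.4 to 33.6 CPM in Cre Clec7aneg libraries, and their part was not tested. Among the 30 other disease-associated genes 30 rose and 0 fell.

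In Cre mice 2 members, Gpnmb and Baiap2l2, were higher in CD229pos than in Clec7apos cells and 0 lower (2.1% of all genes higher, 3.43% lower). The count depended on the fit. With the replicate number as a block within genotype and diet, edgeR also called Cst7 (adjusted p = 0.00642), Ch25h (0.00189) and Ank (0.0359) higher. With 1 block term over the experiment it did not (0.106, 0.0558 and 0.157). Gpnmb had 237, 246 and 218 CPM in Cre CD229pos cells, against 147, 158 and 137 CPM in Cre Clec7apos cells (0.66 ± 0.13, adjusted p = 0.00126), with no overlap. Baiap2l2 had 179.6, 175 and 132 CPM in Cre CD229pos cells, against 117, 135 and 106 CPM in Cre Clec7apos cells (0.44 ± 0.12, adjusted p = 0.0266), the lowest CD229pos library overlapping with the highest Clec7apos one. Its call ended without Cre Clec7apos replicate 1 or 3 or without Cre CD229pos replicate 1 or 2 (adjusted p = 0.0914 to 0.148). By contrast Ly9, which encodes CD229 itself, differed by 2.83 ± 0.14 on the log2 scale between these gates. At the step into CD11cpos, Lgals3 (1.08 ± 0.09, adjusted p = 1.31e-10) and Cd44 (0.92 ± 0.12, adjusted p = 1.47e-06) rose, and Cst7 (-0.50 ± 0.13, adjusted p = 0.00571), Baiap2l2 (-0.90 ± 0.12, adjusted p = 2.33e-06) and Ch25h (-0.50 ± 0.13, adjusted p = 0.00693) fell, beside 6.85% of all genes higher and 7.25% lower. Lgals3 had 158, 177 and 154 CPM in Cre CD11cpos cells, against 75.9, 77.9 and 76.6 CPM in Cre CD229pos cells. Cst7 had 348, 372 and 350.4 CPM in Cre CD11cpos cells, against 505, 512 and 496 CPM in Cre CD229pos cells. Neither gene overlapped between the gates, and the Ch25h call ended without Cre CD11cpos replicate 1 (0.0663) and with DESeq2 (0.0621).

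Mef2aKO microglia had lower markers chiefly in the Clec7aneg gate. There 7 members were lower than in Cre cells and 0 higher, beside 3.91% of all genes lower and 1.62% higher, and Cd63, Cd9 and Cd44 were not called. Gpnmb had 2.58 and 5.92 CPM in the 2 Mef2aKO Clec7aneg libraries, against 38.2, 42.3 and 41.5 CPM in the 3 Cre Clec7aneg libraries (-3.21 ± 0.26, adjusted p = 1.74e-10), and -3.94 without Mef2aKO replicate 2. Baiap2l2 had 2.46 and 3.79 CPM in Mef2aKO and 23.0, 27.7 and 24.3 CPM in Cre Clec7aneg libraries (-2.95 ± 0.26, adjusted p = 6.14e-10). For both genes the highest Mef2aKO library was several-fold below the lowest Cre library. Ch25h had 13.9 and 23.6 CPM in Mef2aKO and 43.5, 60.5 and 65.1 CPM in Cre Clec7aneg libraries (-1.55 ± 0.19, adjusted p = 8.2e-07). Lgals3 (-1.32 ± 0.16), Ank (-1.26 ± 0.11), Cst7 (-1.12 ± 0.16) and Capg (-0.86 ± 0.17) had smaller differences on the log2 scale. The Capg call ended without Mef2aKO replicate 1 (adjusted p = 0.108). Among the 30 other disease-associated genes 15 fell and 0 rose. Border macrophage markers summed to 8.72 to 13.4 CPM in Mef2aKO and 22.4 to 33.6 CPM in Cre Clec7aneg libraries, 1 of 8 being called lower, and their part was not tested.

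In the gates that carry Clec7a fewer members differed. In the Clec7apos gate 2 members, Gpnmb and Lgals3, were lower in Mef2aKO than in Cre cells (2.23% of all genes lower, 1.47% higher), and in the CD229pos and CD11cpos gates these 2 and Baiap2l2 (2.81% and 2.35% of all genes lower, 2.09% and 2.34% higher). Lgals3 had 44.2, 42.0 and 53.0 CPM in Mef2aKO and 92.4, 92.0 and 74.8 CPM in Cre Clec7apos libraries (-0.90 ± 0.10, adjusted p = 1.08e-07). Gpnmb had 47.9, 59.4 and 79.2 CPM in Mef2aKO and 147, 158 and 137 CPM in Cre Clec7apos libraries (-1.25 ± 0.14, adjusted p = 1.99e-07). Both were separate between the genotypes in all 4 gates. In CD229pos cells Gpnmb differed by -1.21 ± 0.13, Lgals3 by -0.79 ± 0.10 and Baiap2l2 by -0.58 ± 0.12 on the log2 scale. In CD11cpos cells the values were -0.50 ± 0.09, adjusted p = 0.000242 for Lgals3, -0.42 ± 0.13, adjusted p = 0.0463 for Gpnmb and -0.42 ± 0.13, adjusted p = 0.048 for Baiap2l2. The last 2 were fragile: the Gpnmb call ended without any 1 of the 3 Cre CD11cpos libraries or Mef2aKO CD11cpos replicate 1 or 3 (adjusted p = 0.0857 to 0.34) and with DESeq2 (0.196), and the Baiap2l2 call without any 1 of the 6 libraries (0.0613 to 0.275). With 1 replicate block term over the experiment, the numbers pairing these 2 groups, Ank was called lower as well (-0.28, adjusted p = 0.0278). Border macrophage markers were lower in the Clec7apos and CD229pos gates, 5 of 8 in each, with sums of 42.2 to 59.6 CPM in Mef2aKO and 103 to 193 CPM in Cre Clec7apos libraries, and their part was not tested.

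The steps were also followed within Mef2aKO mice. All 10 were higher in Mef2aKO Clec7apos than in Mef2aKO Clec7aneg cells (24.8% of all genes higher, 21.0% lower). The difference from the step in Cre mice was tested on the log2 scale. It called 6 members with a larger step in Mef2aKO mice (Cst7, Gpnmb, Capg, Baiap2l2, Ank and Ch25h) and 0 with a smaller one, beside 1.70% of all genes larger and 0.242% smaller. Baiap2l2 had 103, 73.2 and 90.7 CPM in Mef2aKO Clec7apos cells, against 2.46 and 3.79 CPM in Mef2aKO Clec7aneg cells (4.86 ± 0.23, adjusted p = 1.67e-17). Cst7 had 342, 398 and 395 CPM in Mef2aKO Clec7apos cells, against 52.3 and 102 CPM in Mef2aKO Clec7aneg cells (2.33 ± 0.16, adjusted p = 1.76e-13). No member overlapped between these 2 gates, which hold 3 and 2 libraries, and the share of all genes without overlap is not given. Border macrophage markers rose with this step too, 4 of 8, their sum being 42.2 to 59.6 CPM in Mef2aKO Clec7apos and 8.72 to 13.4 CPM in Mef2aKO Clec7aneg libraries, and their part was not tested. Against Mef2aKO baseline cells, the Mef2aKO Clec7aneg cells had 8 members higher and 0 lower (5.01% of all genes higher, 2.84% lower), with Cd63 (0.25 ± 0.14, adjusted p = 0.296) and Cd9 (0.33 ± 0.11, adjusted p = 0.064) not called. Cd9 depended on the fit and was called higher by DESeq2 (adjusted p = 0.034). By edgeR it was called with other size factors (0.0485), only the groups compared (0.0278) or no filter (0.000293). Cd63 was called by edgeR without a filter (0.0398). Gpnmb (3.34 ± 0.57, adjusted p = 0.00013) and Cd44 (1.14 ± 0.25, adjusted p = 0.00238) rested there on single libraries: Gpnmb had a log2 fold change of 2.63 and an adjusted p of 0.0521 without Mef2aKO Clec7aneg replicate 2, and Cd44 an adjusted p of 0.0718 without Mef2aKO Clec7aneg replicate 1 and of 0.1 when only the 2 groups were fitted. A test of the difference from the diet step in Cre mice called 4 members with a smaller step in Mef2aKO mice (Gpnmb, Lgals3, Cd44 and Ank) and 0 with a larger one, beside 1.33% of all genes smaller and 0.0682% larger. The 4 calls ended when only the 4 groups concerned were fitted. With all groups of the experiment fitted, edgeR called no difference between Mef2aKO and Cre mice at the CD229 and CD11c steps for any member. Of all 13204 genes it called 0 and 7 in these tests, so that almost no gene was called. Under an unadjusted p of 0.05 were 0 and 2 members, and the share of all genes under it is not given here. Gpnmb depended on the fit at the CD11c step: its difference of 0.79 ± 0.18, adjusted p = 0.13 was called by edgeR with only the groups compared (0.00771), with the replicate block over the experiment (0.0353) or within genotype and diet (5.46e-06) and without a filter (6.27e-10), and not by DESeq2 (0.434). Of the later steps in Mef2aKO mice, CD229 went with 1 call, Gpnmb (0.69 ± 0.14, adjusted p = 0.0128; 0.0227% of all genes higher), which ended without Mef2aKO Clec7apos replicate 1 or 2 or Mef2aKO CD229pos replicate 2 or 3 (0.0716 to 0.197). At the step to CD11cpos, Gpnmb (0.98 ± 0.13), Lgals3 (1.37 ± 0.10) and Cd44 (0.83 ± 0.12), were called higher and Baiap2l2 (-0.74 ± 0.13), Ank (-0.28 ± 0.09) and Ch25h (-0.49 ± 0.13) were called lower (5.14% of all genes higher, 5.6% lower). The Ank and Ch25h calls ended without Mef2aKO CD229pos replicate 2 or 3 or Mef2aKO CD11cpos replicate 1 or 3 (0.0787 to 0.189 for Ank and 0.0531 to 0.0923 for Ch25h), and that of Ch25h with DESeq2 (0.0895).

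At baseline Mef2aKO and Cre microglia differed in 2 members. Ank had 56.1, 64.9 and 56.1 CPM in Mef2aKO and 108, 95.7 and 84.0 CPM in Cre baseline libraries, with no overlap (-0.70 ± 0.10, adjusted p = 1.26e-05; 2.08% of all genes were called lower and 1.76% higher). Cd44 was called higher, with 3.05, 2.82 and 6.90 CPM in Mef2aKO and 3.03, 1.44 and 1.69 CPM in Cre baseline libraries (1.07 ± 0.29, adjusted p = 0.0284), but 1 library stood above the rest and the groups overlapped. That call ended without Cre baseline replicate 2 (0.198) or 3 (0.076), without Mef2aKO baseline replicate 3 (0.334) and when only the 2 groups were fitted (0.454), and both groups were gated low for CD44 protein. All 8 border macrophage markers were lower there too, at 28.5 to 40.4 CPM in Mef2aKO and 29.0 to 163 CPM in Cre libraries, and their part was not tested. Between the CD229pos and CD229neg cells of Mef2aKO baseline brains no member passed the test, 8 of the 10 having enough reads to be tested (0.135% of all genes higher, 0.0158% lower). By unadjusted p under 0.05 4 of the 8 were higher, the share of all genes under it not being given here, and DESeq2 called 1 (Cd44, adjusted p = 0.0374). With 2 CD229pos libraries the depth was low for the rare markers: Baiap2l2 had 3 and 6 reads in the CD229pos and 0, 0 and 0 reads in the CD229neg libraries.

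**Figure D3:**
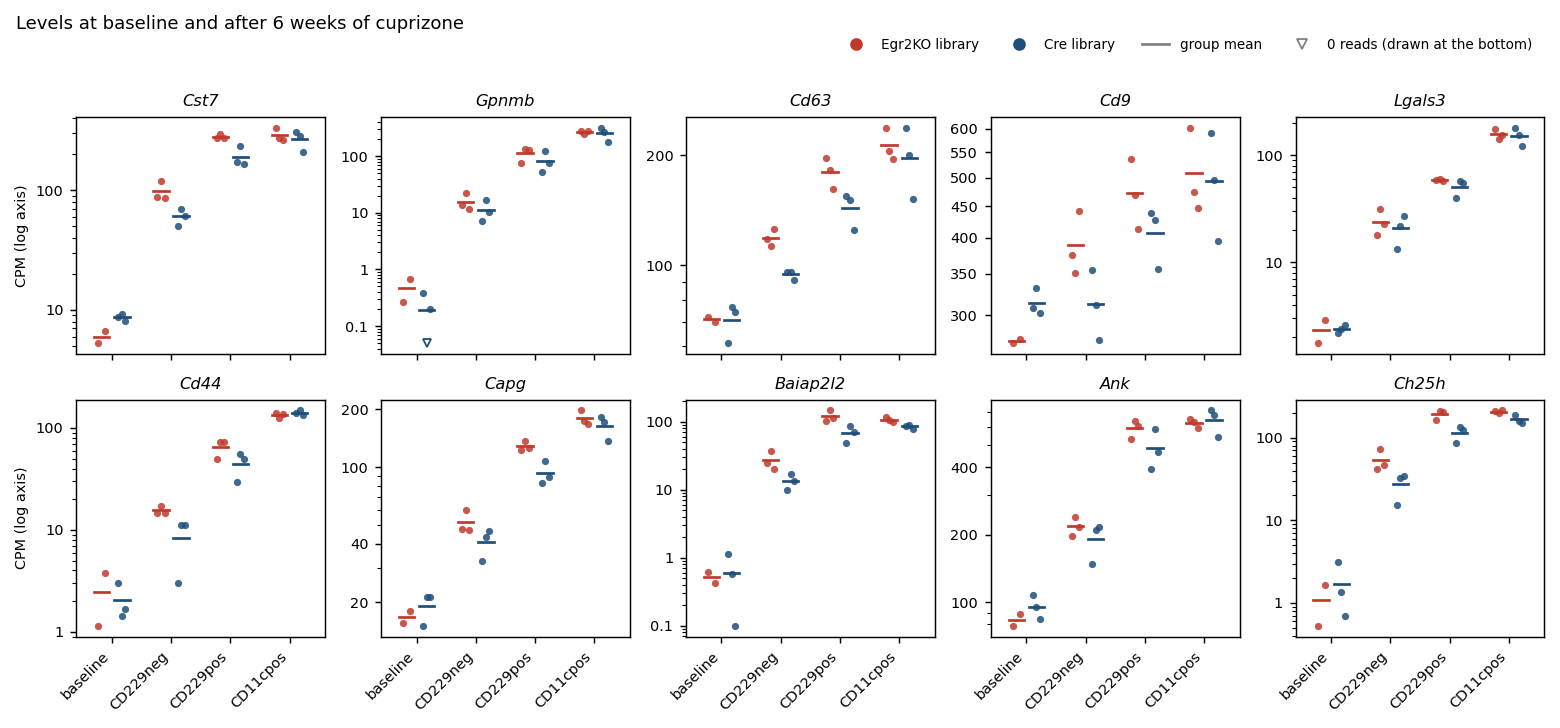
Level of each marker in CPM (log axis) in every library at baseline and in the 3 gates after 6 weeks of cuprizone, Egr2KO (red) left of Cre (blue) within each gate. Points are libraries, horizontal lines are group means and open triangles mark 0 reads. Cst7 in the CD229pos gate lies at 271 to 294 CPM in Egr2KO and at 166 to 234 CPM in Cre libraries.

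At 6 weeks the CD11cpos gate of Cre mice was the highest for all 10 markers by its mean. Against Cre baseline cells, Cre CD229neg cells had 8 members higher and 0 lower (5.03% of all genes higher, 0.827% lower), with Cd63 (0.39 ± 0.15, adjusted p = 0.158) and Cd9 (-0.02 ± 0.17, adjusted p = 0.962) not called. Cd63 was called higher by edgeR with only the groups compared (0.0171) or no filter (0.00247). It was also called with the PE150 tag of the library titles as a covariate (0.58, adjusted p = 0.00546). That tag, whose meaning is not given, was on 2 of 3 Cre CD229neg and 0 of 3 Cre baseline libraries. The log2 fold changes of Gpnmb (5.79 ± 0.77), Baiap2l2 (4.42 ± 0.40) and Ch25h (3.97 ± 0.34) were 6.71, 5.26 and 4.74 without Cre baseline replicate 1, the 3 Cre baseline libraries being the same as those used at 5 weeks. In the next step 9 members were higher in Cre CD229pos than in Cre CD229neg cells (10.7% of all genes higher, 6.54% lower), and Cd9 (0.37 ± 0.17, adjusted p = 0.148) was not called. The replicate numbers paired these groups, and Cd9 was called with the number as a block within genotype and diet (adjusted p = 0.000426) but not with 1 block term over the experiment (0.0506). Gpnmb had 52.1, 121 and 76.5 CPM in Cre CD229pos cells, against 7.17, 16.6 and 10.3 CPM in Cre CD229neg cells (2.83 ± 0.29, adjusted p = 1.15e-07). Cst7 had 169.9, 234 and 166 CPM in Cre CD229pos cells, against 50.6, 69.3 and 61.0 CPM in Cre CD229neg cells (1.64 ± 0.15, adjusted p = 2.17e-08). The gates did not overlap for either gene. Border macrophage markers rose with this step, 7 of 8, to 159 to 386 CPM in Cre CD229pos, against 70.0 to 101 CPM in Cre CD229neg libraries, and their part was not tested.

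At the step to CD11cpos in Cre mice at 6 weeks 8 members were higher in CD11cpos than in CD229pos cells and 0 lower (8.64% of all genes higher, 8.53% lower). Gpnmb had 317, 263 and 175 CPM in Cre CD11cpos cells, against 52.1, 121 and 76.5 CPM in Cre CD229pos cells (1.61 ± 0.24, adjusted p = 1.71e-05). Lgals3 (1.59 ± 0.16, adjusted p = 1.17e-07), Cd44 (1.66 ± 0.20, adjusted p = 9.62e-07) and Capg (0.82 ± 0.12, adjusted p = 2.3e-05) were also higher without overlap. Cst7 had 303, 284 and 209.6 CPM in Cre CD11cpos cells, against 169.9, 234 and 166 CPM in Cre CD229pos cells (0.50 ± 0.14, adjusted p = 0.0148), and the groups overlapped. The calls of Cst7, Ank and Ch25h ended without Cre CD229pos replicate 1 or 3 or Cre CD11cpos replicate 1 or 2 (0.0545 to 0.123 for Cst7, 0.106 to 0.171 for Ank, 0.0714 to 0.189 for Ch25h), and that of Cd63 without Cre CD229pos replicate 3 or Cre CD11cpos replicate 1 or 2 (0.0797 to 0.246). When only the 2 groups were fitted, Ank (0.116), Cd63 (0.108) and Cst7 (0.0869) were not called, nor was Ch25h by DESeq2 (0.231). These groups were paired as well: with the block within genotype and diet Cd9 (0.00394) and Baiap2l2 (0.0421) were called higher, and with 1 block term over the experiment they were not (0.145 and 0.085). The difference between this step at 6 weeks and the steps at 4 and 5 weeks was not tested.

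**Figure D4:**
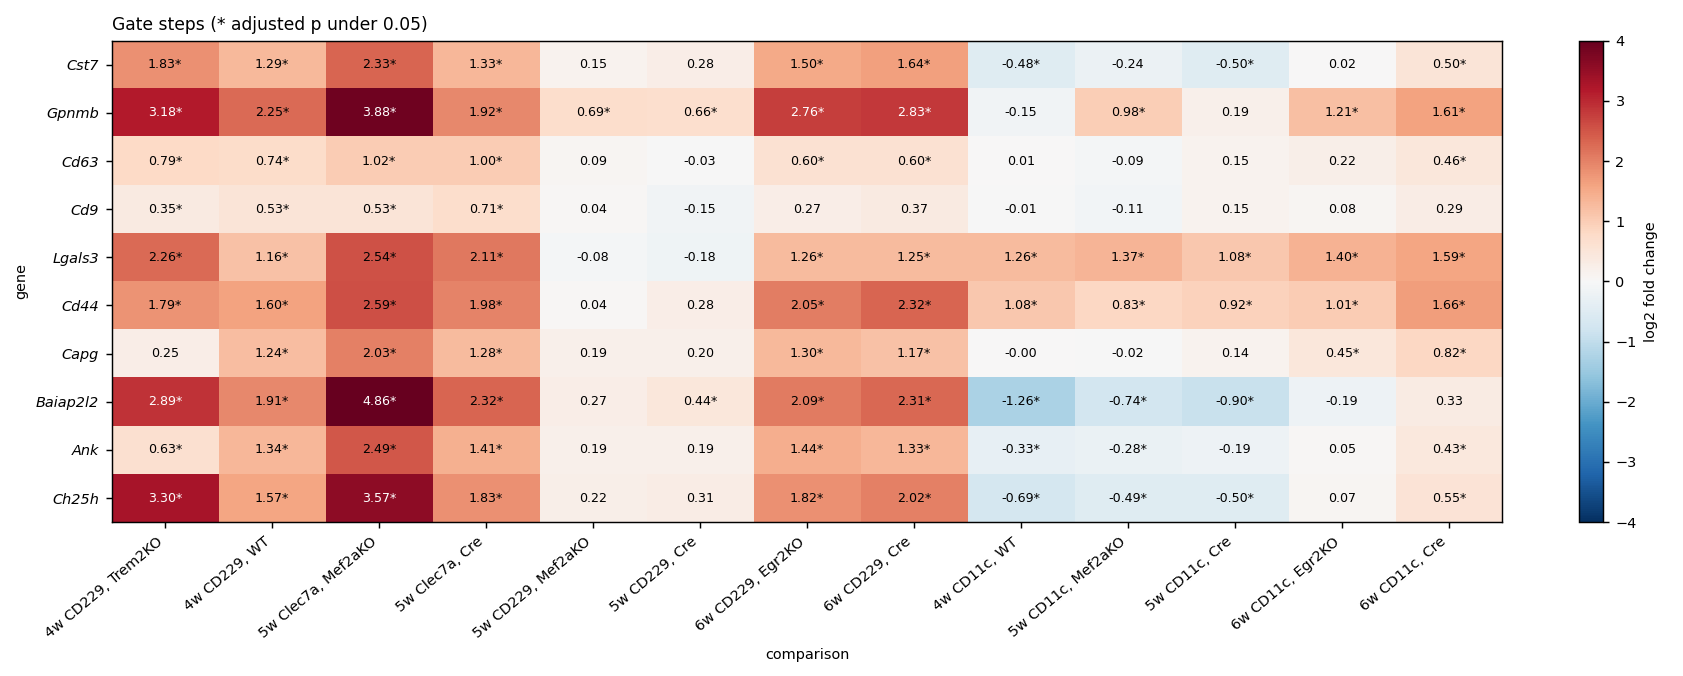
Log2 fold change of each marker at every step between successive cuprizone gates, by experiment and genotype, the knockout left of its control, from the edgeR fits. Red is higher and blue lower in the later gate, and values that passed the test carry an asterisk. The CD11c step is positive for Lgals3 and Cd44 in every column, and negative for Baiap2l2 at 4 and 5 weeks.

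At 6 weeks the mean CPM of all 10 markers was higher in Egr2KO than in Cre mice in the CD229neg and CD229pos gates. Only some of these differences passed the test. In CD229neg cells 3 members were called higher in Egr2KO than in Cre mice and 0 lower, beside 0.144% of all genes higher and 0.0455% lower. Cst7 had 87.8, 119 and 85.7 CPM in Egr2KO and 50.6, 69.3 and 61.0 CPM in Cre CD229neg libraries (0.74 ± 0.15, adjusted p = 0.0415). Baiap2l2 had 24.6, 37.5 and 20.3 CPM in Egr2KO and 9.78, 17.0 and 13.6 CPM in Cre CD229neg libraries (1.09 ± 0.22, adjusted p = 0.0254). Ch25h had 42.1, 72.3 and 46.7 CPM in Egr2KO and 15.5, 32.1 and 34.8 CPM in Cre CD229neg libraries (1.00 ± 0.21, adjusted p = 0.0415). The genotypes did not overlap for these 3, but the calls depended on single libraries. The Cst7 call ended without any 1 of the 6 libraries (adjusted p = 0.0538 to 0.484), the Ch25h call without any 1 of them but Egr2KO replicate 1 (0.0524 to 0.526) and with DESeq2 (0.219), and the Baiap2l2 call without Cre replicate 1 or 3 or Egr2KO replicate 2 (0.156 to 0.525).

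In CD229pos cells 4 members were called higher in Egr2KO than in Cre mice and 0 lower (1.42% of all genes higher, 1.05% lower). Cst7 had 271, 294 and 271 CPM in Egr2KO and 169.9, 234 and 166 CPM in Cre CD229pos libraries (0.60 ± 0.14, adjusted p = 0.0236). Baiap2l2 (0.87 ± 0.17, adjusted p = 0.00731), Ch25h (0.80 ± 0.18, adjusted p = 0.0174) and Capg (0.52 ± 0.13, adjusted p = 0.0277) were the other 3, and for all 4 the lowest Egr2KO library was above the highest Cre library. The calls of Cst7, Ch25h and Capg ended without Cre replicate 1 or 3 or Egr2KO replicate 2 or 3 (0.0614 to 0.167 for Cst7, 0.0729 to 0.107 for Ch25h, 0.0677 to 0.162 for Capg), that of Baiap2l2 without Egr2KO replicate 2 (0.0807), and that of Ch25h with DESeq2 (0.15). In CD11cpos cells no member passed the test in either direction by edgeR or DESeq2 (0.121% of all genes higher, 0.129% lower), 1 of 10, Baiap2l2, having an unadjusted p under 0.05. Cst7 had 331, 274 and 259 CPM in Egr2KO and 303, 284 and 209.6 CPM in Cre CD11cpos libraries there. At baseline no member passed the test by edgeR or DESeq2 either (0.152% of all genes higher, 0.0303% lower), with 0 of 10 under an unadjusted p of 0.05. The share of all genes under that p is not given here for CD11cpos or baseline cells, so neither count has a background. Both Egr2KO baseline libraries and 0 of the 3 Cre baseline libraries carry a PE150 tag in their titles, whose meaning is not given, so that tag and genotype cannot be told apart in this comparison. Of the libraries of each 6-week gate, 2 of 3 carry it in both genotypes. Border macrophage markers summed to 49.4 to 70.0 CPM in Egr2KO and 70.0 to 101 CPM in Cre CD229neg libraries, none of the 8 being called. In CD229pos cells they summed to 123 to 198 CPM in Egr2KO and 159 to 386 CPM in Cre libraries, none being called, and endothelial markers to 199 to 281 CPM in Egr2KO and 98.4 to 201 CPM in Cre libraries, 1 of the 4 tested (Flt1) being called higher. The part of these cell types was not tested.

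Egr2KO CD229neg cells had 9 members higher than Egr2KO baseline cells and 0 lower (6.52% of all genes higher, 1.71% lower), Cd9 being the exception (0.56 ± 0.19, adjusted p = 0.0742). Cd9 depended on the fit. By edgeR it was called higher with the replicate block (0.00596), only the groups compared (0.0148), the PE150 tag as a covariate (0.0414) or no filter (0.000328). With 2 Egr2KO baseline libraries the low-count values moved: without baseline replicate 2, Cd63 was not called (adjusted p = 0.0558) and the log2 fold changes of Ch25h (5.66 ± 0.40), Gpnmb (5.11 ± 0.70) and Cd44 (2.69 ± 0.39) became 6.67, 5.92 and 3.77, while Cd44 was 2.09 without replicate 1. From CD229neg to CD229pos 9 members rose in Egr2KO mice and Cd9 was not called (0.27 ± 0.17, adjusted p = 0.261; 14.7% of all genes higher, 12.8% lower). Border macrophage markers rose with it, 4 of 8, with sums of 123 to 198 CPM in Egr2KO CD229pos and 49.4 to 70.0 CPM in Egr2KO CD229neg libraries. Endothelial markers summed to 199 to 281 CPM in Egr2KO CD229pos and 89.1 to 112 CPM in Egr2KO CD229neg libraries, 1 of the 4 tested rising and 1 falling. From CD229pos to CD11cpos 4 rose, Gpnmb (1.21 ± 0.24), Lgals3 (1.40 ± 0.16), Cd44 (1.01 ± 0.20) and Capg (0.45 ± 0.12, adjusted p = 0.0162), and 0 fell (5.44% of all genes higher, 6.25% lower). Border macrophage markers fell at that step, 6 of 8, with 40.4 to 47.1 CPM in Egr2KO CD11cpos libraries, and the part of these cell types was not tested. The Capg call ended without Egr2KO CD229pos replicate 3 (0.0873) or CD11cpos replicate 1 (0.0963). Cst7, called higher at this step in Cre mice, had 331, 274 and 259 CPM in Egr2KO CD11cpos and 271, 294 and 271 CPM in Egr2KO CD229pos cells (0.02 ± 0.14, adjusted p = 0.943). With all groups of the experiment fitted, edgeR called no member in the tests of a difference in step between the genotypes at 6 weeks. Of all 13187 genes it called 4 at the diet step, 0 at the CD229 step and 0 at the CD11c step, so that almost no gene was called. The unadjusted p was under 0.05 for 5 members at the diet step, 0 at the CD229 step and 4 at the CD11c step. The share of all genes under that p is not given here, so these counts have no background to be set against. Cst7 at the diet step (1.30 ± 0.32, adjusted p = 0.175) was called by DESeq2 (0.00575) and by edgeR with only the groups compared (0.0104), with the replicate block (0.0301) and without a filter (9.47e-07).

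The whole microglial population at 5 weeks, with 2 libraries a genotype, gave 1 member higher and 1 lower in Egr2KO mice (0.299% of all genes higher, 0.622% lower). Baiap2l2 had 116 and 140.0 CPM in Egr2KO and 92.3 and 91.7 CPM in Cre whole populations (0.43 ± 0.09, adjusted p = 0.0422). Ank had 492 and 529 CPM in Egr2KO and 634 and 657 CPM in Cre whole populations (-0.39 ± 0.08, adjusted p = 0.0337). Both pairs were separate, but the Ank call ended without Egr2KO replicate 1 (0.455) or 2 (0.14), and the Baiap2l2 call without Egr2KO replicate 2 (0.474) and with DESeq2 (0.0721). Cst7, which was called higher in the Egr2KO CD229neg and CD229pos gates at 6 weeks and not in CD11cpos, had 350.1 and 350.1 CPM in Egr2KO and 383 and 466 CPM in Cre whole populations and was not called (-0.32 ± 0.10, adjusted p = 0.197).

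**Figure D5:**
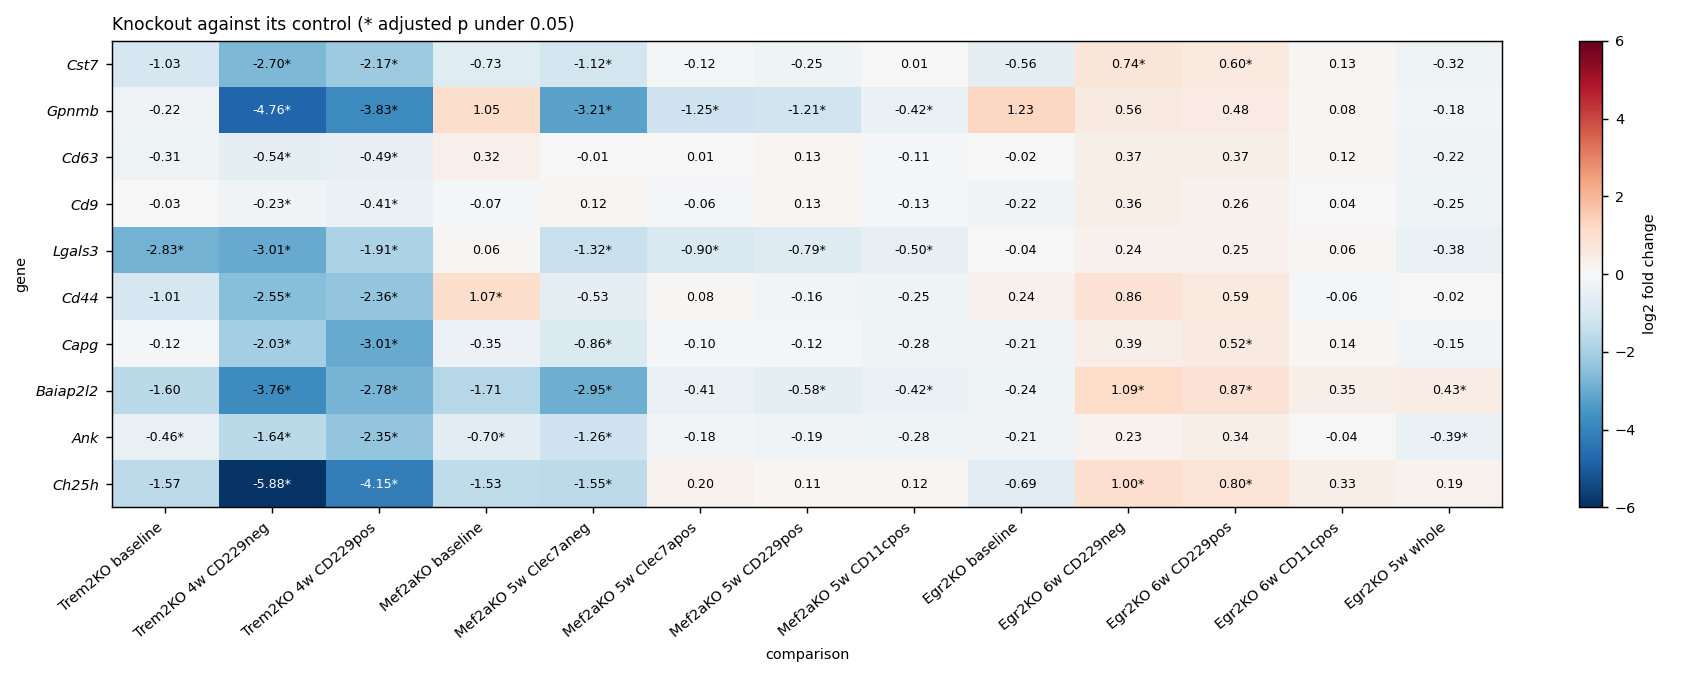
Log2 fold change of each marker in each knockout against its control, by gate, from the edgeR fits. Red is higher and blue lower in the knockout, and values that passed the test carry an asterisk. The 2 Trem2KO cuprizone columns are negative for all 10 markers, the Mef2aKO columns chiefly in the Clec7aneg gate. In both the Egr2KO CD229neg and CD229pos columns Cst7, Baiap2l2 and Ch25h are positive with an asterisk.

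The markers also resembled one another over the group means at 5 and at 6 weeks. Over the 10 group means of the 5-week experiment the correlation of log2 CPM between members ran from 0.903 (Gpnmb with Cd9) to 0.998 (Cst7 with Ch25h), and over the 8 group means at 6 weeks the highest was again Cst7 with Ch25h (0.999) and the lowest Cd9 with Baiap2l2 (0.901). These are descriptions over group means that share baseline libraries and the same steps. Outside the list, the 2 genes with the pattern most like a member's were Slfn9 and Oasl2 for Cst7, Phlda1 and Spp1 for Gpnmb, Nap1l1 and Cyba for Cd63, Vdac2 and Ctss for Cd9, and Slc45a3 and Alcam for Lgals3. They were Mfsd12 and 4930404N11Rik for Cd44, Apoc2 and Gm44805 for Capg, Hpse and Egln3 for Baiap2l2, Cacna1a and Pgk1 for Ank, and Oasl2 and Chaf1b for Ch25h. For Capg the correlation was 0.999 with both Apoc2 and Gm44805 over 10 groups at 5 weeks, and 0.997 and 0.999 over 8 groups at 6 weeks. For Cst7 the values at 5 weeks were 0.995 with Slfn9 and 0.994 with Oasl2, which was also among those of Ch25h. For Gpnmb they were 0.995 with both Phlda1 and Spp1. Spp1, which encodes the secreted matrix protein osteopontin, is itself one of the 30 other disease-associated genes.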

How the data were processed

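Polyadenylated RNA of sorted mouse microglia was sequenced from strand-marked (dUTP) libraries, per the labels' protocols. The authors deposited 6 tables of raw read counts per gene and 6 tables of TPM per gene, both on mm10. The submitters' processing notes name fastp 0.20.0, STAR 2.7.0f, HOMER 4.11 and DESeq2 without their settings. Counts of a multigene copy or an overlapping gene cannot be separated further here.

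Members were taken by symbol, and the members and gene lists were chosen with earlier results of these data known. From the counts, CPM were computed per library. Each of 5 experiments was fitted with edgeR 4.0.16 (limma 3.58.1, R 4.3.3): filterByExpr, TMM factors, 1 mean per group and the quasi-likelihood F test, with Benjamini-Hochberg adjustment over all 12387 to 13204 genes tested and a threshold of 0.05. There were 42 contrasts, 6 of diet, 14 of gate, 13 of genotype and 9 of differences between genotypes. Counts of members by unadjusted p are given without the share of all genes under it. The 3 Cre baseline libraries serve the 5-week and 6-week experiments and the 3 WT baseline libraries both 4-week tables, so comparisons that use them share samples. The 4-week tables were joined on genes whose summed counts in the shared libraries agreed within 5% (39 genes left out). For Capg the tables list different transcripts, and 2 counts of the shared libraries differed.

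The deposited TPM of listed rows summed to 490797 to 513360 per library, and were used only to compare levels between genes. Replicates differed beyond sampling noise (chi-square per degree of freedom 1.56 to 16.1), so none was merged. Groups follow the labels. Named genes are the members, the sorting and target genes, the 3 genes of a list with the smallest adjusted p at most, and 2 genes per member by the correlation of group means at 5 weeks among genes above 5 CPM. The replicate numbers were checked for pairing by the correlation of same-numbered libraries' deviations from their group means. Every pair exceeded 0.1 in 9 comparisons, the lowest being 0.101 and the highest 0.555, and these are named paired by that rule alone. The main fits held no block term for any comparison, so the pairing enters only the alternative fits with a block. Alternatives were other size factors, no filter, DESeq2 1.42.0, only the groups compared, a replicate block over the experiment or nested in genotype and diet, the PE150 tag of 17 library titles as a covariate, separate 4-week tables and leaving out each library. A fit of genes with identical shared counts only was chosen after seeing the data. Procedures were tested on simulated counts.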

Additional observations from a re-analysis of the deposited data

Results flagged for a closer look

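In Trem2KO CD229pos cells at 4 weeks, Baiap2l2 had 28.6, 29.6, 29.1 and 34.8 CPM, and replicate 4 stood apart from the other 3 by 0.837 of the whole range, above the 95% limit of Dixon's test for 4 samples. Chance flags about 1 in 20 groups, and 20 groups were examined. The Trem2KO minus WT log2 fold change of Baiap2l2 in that gate was -2.78 ± 0.13 and stayed called when any 1 library was left out.

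The change between baseline and the CD229neg gate was smaller in Trem2KO than in WT mice for 4 members by a direct test of the difference. On the log2 scale that difference was -1.67 ± 0.34, adjusted p = 0.00425 for Cst7, -1.91 ± 0.23, adjusted p = 1.44e-05 for Capg, -1.18 ± 0.14, adjusted p = 1.44e-05 for Ank and -4.31 ± 1.18, adjusted p = 0.0363 for Ch25h. The Ch25h call ended without Trem2KO baseline replicate 1 (adjusted p = 0.0699), 2 (0.22, value -3.60) or 3 (0.0609), where its counts were 2, 5 and 1. Gpnmb had a larger difference that was not called (-4.55 ± 1.83, adjusted p = 0.157), and by DESeq2 it was called (0.000484).

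The step from CD229neg to CD229pos, taken on the log2 scale, differed between Trem2KO and WT mice for 7 members. It was larger in Trem2KO mice for Ch25h (1.73 ± 0.30, adjusted p = 0.000239), Lgals3 (1.10 ± 0.30, adjusted p = 0.0117), Baiap2l2 (0.98 ± 0.24, adjusted p = 0.00534), Gpnmb (0.93 ± 0.32, adjusted p = 0.0476) and Cst7 (0.54 ± 0.17, adjusted p = 0.0355), and smaller for Capg (-0.99 ± 0.20, adjusted p = 0.00114) and Ank (-0.71 ± 0.13, adjusted p = 0.000375). The Gpnmb call ended without WT CD229neg replicate 3, WT CD229pos replicate 1 or 3, Trem2KO CD229neg replicate 2, 3 or 4, or Trem2KO CD229pos replicate 1, 2 or 4 (adjusted p = 0.0559 to 0.153), with the replicate block (0.0517), with other size factors (0.0535) and with only the groups compared (0.0551). The Cst7 call ended without WT CD229neg replicate 3, WT CD229pos replicate 1 or 3, Trem2KO CD229neg replicate 2 or 3, or Trem2KO CD229pos replicate 3 or 4 (0.0674 to 0.146), and with DESeq2 (0.107). For Ch25h the CD229pos and CD229neg libraries held 13.4 to 18.5 and 0.981 to 2.06 CPM in Trem2KO mice, against 279.7 to 286 and 79.2 to 132 CPM in WT mice.

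Between baseline and the Clec7aneg gate at 5 weeks, 4 members changed less in Mef2aKO than in Cre mice: Gpnmb (-4.26 ± 1.12, adjusted p = 0.0456), Cd44 (-1.60 ± 0.36, adjusted p = 0.0112), Lgals3 (-1.39 ± 0.29, adjusted p = 0.0063) and Ank (-0.56 ± 0.14, adjusted p = 0.0417). When only the 4 groups concerned were fitted none was called (adjusted p = 0.065 for Gpnmb, 0.253 for Cd44, 0.0724 for Lgals3 and 0.284 for Ank). The Gpnmb call ended without Cre baseline replicate 2 or 3, Cre Clec7aneg replicate 2 or 3, Mef2aKO baseline replicate 1 or 3, or Mef2aKO Clec7aneg replicate 1 (0.0552 to 0.246), its value being -5.17 without Cre baseline replicate 1 and -4.99 without Mef2aKO Clec7aneg replicate 2. The Cd44 call ended without Cre baseline replicate 2, Mef2aKO baseline replicate 3 or Mef2aKO Clec7aneg replicate 2 (0.0607 to 0.09), and the Ank call without Cre baseline replicate 2 or 3, Cre Clec7aneg replicate 2 or 3, Mef2aKO baseline replicate 2 or Mef2aKO Clec7aneg replicate 1 (0.0772 to 0.384) and with other size factors (0.0572).

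The step from Clec7aneg to Clec7apos was larger in Mef2aKO than in Cre mice for 6 members: Baiap2l2 (2.54 ± 0.30, adjusted p = 1.4e-06), Gpnmb (1.97 ± 0.31, adjusted p = 0.000174), Ch25h (1.75 ± 0.23, adjusted p = 1e-05), Ank (1.07 ± 0.14, adjusted p = 5.61e-06), Cst7 (1.00 ± 0.20, adjusted p = 0.00343) and Capg (0.75 ± 0.21, adjusted p = 0.0489). Gpnmb was at 2.69 without Mef2aKO Clec7aneg replicate 2. The Cst7 call ended without Mef2aKO Clec7aneg replicate 1 (0.14). The Capg call ended without Cre Clec7aneg replicate 2 or 3, any 1 Cre Clec7apos library, Mef2aKO Clec7aneg replicate 1, or Mef2aKO Clec7apos replicate 2 or 3 (0.0563 to 0.51), with other size factors (0.0552) and with DESeq2 (0.0632). These steps are on the log2 scale, and the Mef2aKO Clec7aneg group holds 2 libraries.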

How the results depend on the processing

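No called member changed sign under any alternative. Of the members' values in all comparisons, 413 of 418 kept their side of the threshold with other size factors (which moved the median of all genes by at most 0.03), 398 of 418 with DESeq2, 376 of 418 without a filter, 380 of 409 with only the groups compared, 411 of 418 with the replicate block, 186 of 197 with the block nested in genotype and diet, 135 of 138 with the PE150 tag as a covariate, 59 of 60 with each 4-week table alone and 90 of 90 with genes of identical shared counts. In the 9 paired comparisons the 2 block fits changed no other call than the 5 given with those comparisons. Leaving out 1 library kept 2857 of 3020.

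Without a filter the number of members called became 4 for the CD229 step in Cre mice at 5 weeks, 1 for that step at Mef2aKO baseline, 4 for Trem2KO and 6 for Mef2aKO at baseline, 5 for Mef2aKO in both the CD229pos and CD11cpos gates, 6 and 8 for Egr2KO in the CD229neg and CD229pos gates, 4 for the Egr2KO whole population, 1 for the difference of the CD11c step in Mef2aKO mice and 2 for the difference of the diet step in Egr2KO mice. With only the groups compared it became 4 for the CD229 step in Cre mice at 5 weeks, 5 for the CD11c step in Cre mice at 6 weeks, 0 for Trem2KO and 1 for Mef2aKO at baseline, 5 and 6 for Mef2aKO in the CD229pos and CD11cpos gates, 0 for the difference of the diet step and 1 for that of the CD11c step in Mef2aKO mice, and 1 for that of the diet step in Egr2KO mice. DESeq2 gave 1 for the CD229 step at Mef2aKO baseline, 4 for Mef2aKO at baseline, 1 for the Egr2KO whole population and 1 for the diet step difference in Egr2KO mice. The replicate block gave 4 for the Egr2KO whole population and 1 for the differences of the CD11c step in Mef2aKO and of the diet step in Egr2KO mice, and the nested block 5 for the CD229 step in Cre mice at 5 weeks, 1 for that step at Mef2aKO baseline and 1 for the CD11c step difference in Mef2aKO mice. The causes were not tested.

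When 1 library was left out the count ran from 7 to 9 for the Trem2KO diet step, 7 to 8 for the Mef2aKO one, 1 to 2 for the CD229 step in Cre and 0 to 1 in Mef2aKO mice at 5 weeks, 4 to 6 for the CD11c step in Mef2aKO mice and 4 to 9 for that step in Cre mice at 6 weeks. It ran from 0 to 2 for Trem2KO and 1 to 2 for Mef2aKO at baseline, 2 to 3 and 1 to 3 for Mef2aKO in the Clec7apos and CD11cpos gates, 0 to 2 and 0 to 5 for Egr2KO in the CD229neg and CD229pos gates and 0 to 5 for the Egr2KO whole population. For the differences between genotypes it ran from 3 to 5 and 5 to 7 for the diet and CD229 steps in Trem2KO mice and 1 to 4 and 4 to 6 for the diet and Clec7a steps in Mef2aKO mice. Where this leaves 1 library in a group, that library is assumed to vary like the other groups. At baseline Gpnmb, Baiap2l2 and Ch25h rest on few reads, which limits their diet values.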
